A study of Homo sapiens with 4 samples.

Results

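The insulin-like growth factor (IGF) family on the array comprised 10 genes, namely the ligands IGF1 and IGF2, the receptor IGF1R and the binding proteins IGFBP1 to IGFBP7. Its members were all non-control probes that carry one of these gene names in the array design, which gave 19 probes of 41000 and 10 of the 30499 gene names on the array, and each probe was kept apart. The RNA came from Meg-01, an established human megakaryoblastic leukemia cell line, in which GATA1, a transcription factor of the erythroid and megakaryocytic lineages, had been knocked down. GATA1 5-13 and GATA1 4-14 are stable lines from lentiviral infection with a GATA1 shRNA, each grown from 1 colony in soft agar after puromycin selection, so each is 1 clone. The control, GATA1 Neg, was not cloned: it consists of pooled Meg-01 cells that received a non-targeting shRNA by the same route. Every one of the 4 2-colour Agilent arrays compared 1 clone with GATA1 Neg. Each clone was hybridized on 2 arrays with the dyes exchanged, replicate 1 with the knockdown RNA in red and replicate 2 with it in green. The comparison asks what changed when GATA1 was lowered. As both clones were set against the same control pool, the spread between controls was not measured.

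IGF1 and IGF2 are secreted peptides that signal through the tyrosine kinase receptor IGF1R, which docks IRS adaptor proteins and activates the PI3K, AKT and RAS pathways of growth and survival. IGFBP1 to IGFBP6 hold IGFs in the extracellular space with high affinity and either keep them from the receptor or deliver them to it, and proteases such as PAPPA release the ligand by cutting the binding protein. IGFBP7 belongs to the same protein family but binds IGFs weakly.

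Promoter sequences show what lies in front of the member genes that the array detected. The RefSeq promoter table on GRCh38.p14 held 7 of the 10 genes, with 10 start sites, and the 250 bases upstream of each were searched on both strands for the GATA motifs AGATAA or AGATAG or TGATAA or TGATAG, for the TATA box TATAAA and for the GC box GGGCGG. The genes without an entry were IGFBP1, IGFBP7 and IGF2. The upstream windows of the 4 detected genes with an entry are given 5′ to 3′, with GC boxes and TATA boxes in capitals; for IGFBP2, which has 3 listed start sites, the middle one is shown.
IGF1R (chr15:98648289-98648538, plus strand): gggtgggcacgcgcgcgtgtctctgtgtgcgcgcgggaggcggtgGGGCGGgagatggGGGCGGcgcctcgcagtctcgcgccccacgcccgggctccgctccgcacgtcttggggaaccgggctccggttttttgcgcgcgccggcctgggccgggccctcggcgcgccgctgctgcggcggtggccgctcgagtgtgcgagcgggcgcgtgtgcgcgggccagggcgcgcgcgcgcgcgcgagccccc
IGFBP2 (chr2:216633170-216633419, plus strand): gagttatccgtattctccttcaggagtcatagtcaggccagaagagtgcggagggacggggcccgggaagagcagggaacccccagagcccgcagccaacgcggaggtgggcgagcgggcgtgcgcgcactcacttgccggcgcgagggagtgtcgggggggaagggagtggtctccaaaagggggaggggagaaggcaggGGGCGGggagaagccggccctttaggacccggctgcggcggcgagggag
IGFBP4 (chr17:40443200-40443449, plus strand): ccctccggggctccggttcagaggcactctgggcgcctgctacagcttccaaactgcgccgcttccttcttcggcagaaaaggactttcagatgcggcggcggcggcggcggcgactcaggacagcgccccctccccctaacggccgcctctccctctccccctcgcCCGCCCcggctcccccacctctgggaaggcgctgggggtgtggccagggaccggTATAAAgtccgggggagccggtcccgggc
IGFBP5 (chr2:216695550-216695799, minus strand): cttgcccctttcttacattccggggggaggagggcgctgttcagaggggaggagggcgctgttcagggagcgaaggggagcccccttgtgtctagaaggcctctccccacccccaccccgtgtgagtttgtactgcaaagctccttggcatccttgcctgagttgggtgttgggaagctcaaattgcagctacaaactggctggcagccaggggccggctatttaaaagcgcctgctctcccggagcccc

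The 4 windows held 0 GATA motifs, and no marked motifs overlapped. Of the 10 windows of the family, 1 held a GATA motif, AGATAG on the reverse strand upstream of an IGF1 start site, compared with 22.3% of all 35116 windows in the table. By single motif, the share of all windows was 9.2% for AGATAA, 5.7% for AGATAG, 6.7% for TGATAA and 5.0% for TGATAG. IGFBP4 had the only TATAAA among the family's windows, a motif in 10.7% of all windows. A GC box, present in 42.6% of all windows, stood in front of IGF1R, IGFBP2 and IGFBP4 but not in the window of IGFBP5. Among the windows not shown, those of IGFBP3, IGFBP6 and another IGFBP2 start site also held a GC box. Those of IGF1 and of the remaining IGFBP2 start site did not. The GC content of the windows shown was 81.2% for IGF1R, 69.2% for IGFBP2, 71.6% for IGFBP4 and 61.2% for IGFBP5, against a median of 58.0% over all windows. The paper lists IGFBP5, and IGF2R outside the family, among the genes shared by its expression list and its array-read chromatin immunoprecipitation of GATA1. IGFBP7 was also among the genes that the study followed up by PCR after chromatin immunoprecipitation of GATA1, with the primers below. Their genome position was not given in the sources used here.
IGFBP7 forward primer: gccgatgggtccttgta
IGFBP7 reverse primer: cccccaactcctaagaagac

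Between 61.6% and 66.4% of spots were well above background per channel, 135 to 152 spots per array were outliers, and 0 were saturated. All 4 arrays lay on 1 slide, so the slide could not be fitted as a block. Log2 ratios of the 2 arrays of a clone correlated over all probes with r = 0.81 for GATA1 5-13 and r = 0.64 for GATA1 4-14, and the clone means correlated with r = 0.34. The probe for GATA1 itself, A_24_P374244 (hg18, chrX:48535797-48536559), had log2 ratios to GATA1 Neg of -0.21 and -0.34 in GATA1 5-13 and of -0.43 and -0.58 in GATA1 4-14. GATA1 was lower on all 4 arrays, at 82.7% and 70.6% of GATA1 Neg, which matches the labels in direction. Its adjusted p was 0.605 by limma with Benjamini-Hochberg adjustment. When the arrays were centred on the median in place of loess, replicate 1 of GATA1 5-13 turned to 0.05. The paper reports lower GATA1 transcript by real-time RT-PCR and lower GATA1 protein by Western blotting in both clones. Of 10 megakaryocyte marker genes on the array, 7 were above background in GATA1 Neg on all 4 arrays, among them ITGA2B and GP9, whereas PF4 and VWF never were, and 5 of 5 erythroid markers were. Liver markers (0 of 2) were not detected. Of 6 fibroblast genes 5 were never above background, and the exception, LUM, was lower in GATA1 5-13 (-0.89 on the log2 scale) and higher in GATA1 4-14 (1.87). The endothelial genes PECAM1 and TEK were detected, and CDH5 was not. Some markers moved with the clones. All 11 measurable megakaryocyte marker probes were below the control in GATA1 5-13, from -1.68 for GP1BA to -0.01 for an ITGB3 probe, whereas in GATA1 4-14 4 were below and 7 above it, between -0.19 and 0.29. Their summed intensity was 41901 and 43184 in GATA1 5-13, 50363 and 55496 in GATA1 4-14, and 51621 to 57987 in GATA1 Neg. The 2 endothelial probes were lower in both clones. Of 9 erythroid marker probes, 3 were lower and the others higher in GATA1 5-13, from -0.29 to 1.00 for an HBG1 probe. All 9 were lower in GATA1 4-14, between -0.47 and -0.22. The summed intensity of the erythroid probes was 464766 and 459892 in GATA1 5-13 and 369791 and 235404 in GATA1 4-14. In GATA1 Neg it ran from 198319 to 416967. The part of these markers in the IGF family values was not tested.

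In these cells 5 of the 10 genes were measurable. IGF1R, IGFBP2, IGFBP4, IGFBP5 and IGFBP7 each had at least 1 probe above background on all 4 arrays. That was the case for 7 of the 19 probes, and for 24751 of all 40974 probes tested. IGF1, IGF2, IGFBP1, IGFBP3 and IGFBP6 had no such probe. Of the 12 other probes, 9 were not well above background in either RNA on any array. A probe counted as well above background where most of its spots carried that mark of the scanner software in at least 1 of the 2 RNAs.

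**Figure D1:**
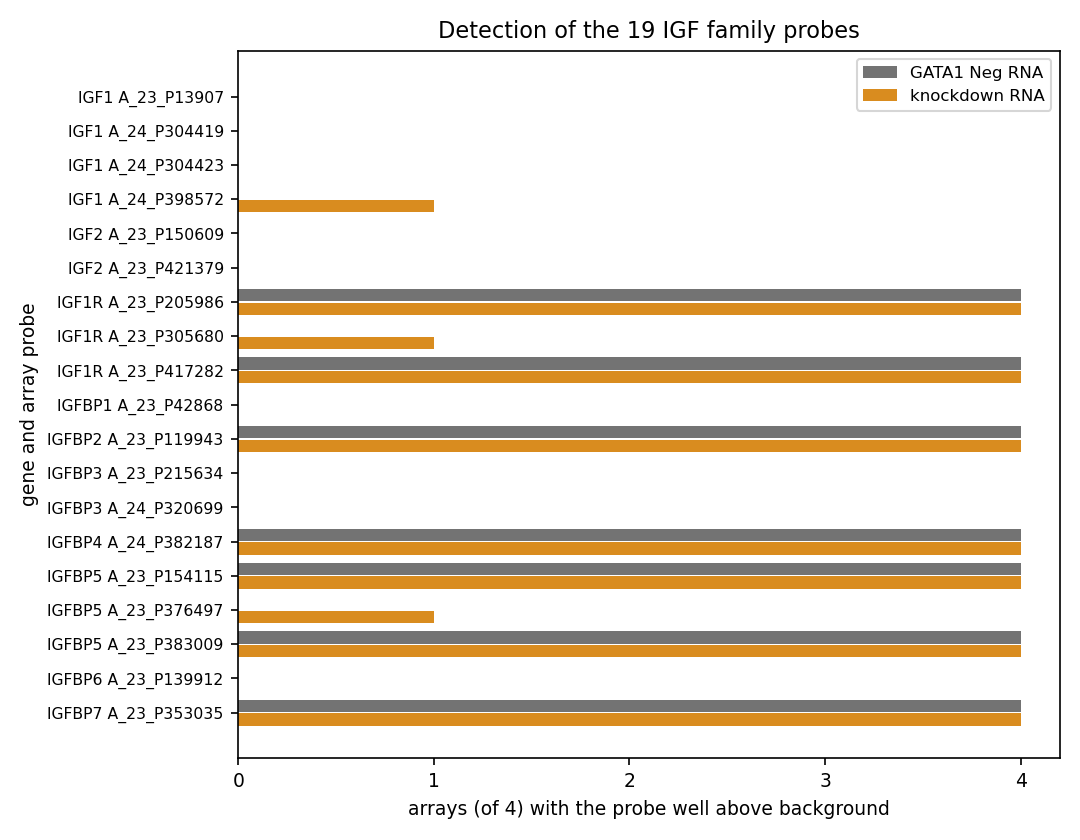
Number of arrays, of 4, on which each of the 19 IGF family probes (vertical axis) was well above background in GATA1 Neg RNA (grey bars) and in knockdown RNA (orange bars). The bars reach 4 in both RNAs for 7 probes of 5 genes, and 9 probes have no bar.

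The ligands were not detected in either RNA, apart from 1 array. For IGF1, the main circulating and local growth factor of the family, 4 probes lie on chromosome 12. Its probe A_24_P398572 (hg18, chr12:101313856-101313915) was above background in the knockdown RNA on 1 of the 2 arrays of GATA1 5-13 and never in GATA1 Neg. Intensities there were 88.7 and 113 in GATA1 5-13 against 74.4 and 84.5 in GATA1 Neg, with an adjusted p of 0.764 (limma, Benjamini-Hochberg). As replicate 1 of GATA1 5-13 was above background in neither RNA, no fold is given for this probe. In GATA1 4-14 the same probe read 67.6 and 95.8 against 74.7 and 87.6, and the 2 arrays lay on opposite sides of the control. The other 3 IGF1 probes, A_23_P13907, A_24_P304419 and A_24_P304423, and both IGF2 probes, A_23_P150609 and A_23_P421379, were never well above background. IGF2 is the fetal growth factor of the family and is imprinted in most tissues. For these 5 probes the array gives neither a level nor a fold change.

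The receptor IGF1R, which transmits the signal of both ligands, read lower in GATA1 5-13 on both measurable probes, and in GATA1 4-14 the values lay near the control. Its brighter probe, A_23_P417282 (hg18, chr15:97324889-97324948), had intensities of 4187 and 4801 in GATA1 5-13 against 7765 and 6846 in GATA1 Neg on the same arrays. In GATA1 4-14 it had 5945 and 6747 against 7013 and 6616. Both arrays of GATA1 5-13 and replicate 1 of GATA1 4-14 fell below the lowest of the 4 GATA1 Neg readings, and replicate 2 of GATA1 4-14 lay inside their range. Here and below, these 4 readings are of the same control pool, and no source says whether its RNA came from separate cultures. Their range is therefore not taken as the spread of the control. The log2 ratios were -0.89 and -0.51, then -0.24 and 0.03, or 61.5% and 93.0% of GATA1 Neg as clone means. The mean of the clones was -0.40 ± 0.42 (SD, n = 2 clones), with an adjusted p of 0.704 by limma with Benjamini-Hochberg adjustment.

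The second probe, A_23_P205986 (hg18, chr15:97318690-97318749), is printed 10 times on each array, which gives its ratios a spread within an array. Intensities were 130.5 and 135 in GATA1 5-13 against 152 and 161 in GATA1 Neg, and 167 and 159 in GATA1 4-14 against 161 and 155. The log2 ratios of -0.22 and -0.25 in GATA1 5-13 and of 0.05 and 0.04 in GATA1 4-14 had SDs over 9 or 10 usable spots of 0.047 to 0.073. The 2 arrays of GATA1 5-13 lay below and the 2 arrays of GATA1 4-14 above the control, at 84.8% of GATA1 Neg in GATA1 5-13 and 103% in GATA1 4-14. Over the clones the mean was -0.09 ± 0.20 (SD, n = 2), with an adjusted p of 0.84 (limma, Benjamini-Hochberg). In replicate 1 of GATA1 5-13 only 5 of 9 knockdown spots were well above background, and the size of the ratios depended on how the background was handled: the clone mean of -0.24 in GATA1 5-13 was -0.51 in Feature Extraction's own log ratios and -0.08 with no background correction. The third IGF1R probe, A_23_P305680, was above background on 1 array and in the knockdown RNA alone, and is not interpreted.

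Bulk RNA was measured throughout, in which fewer cells with a transcript and less of it per cell cannot be told apart.

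**Figure D2:**
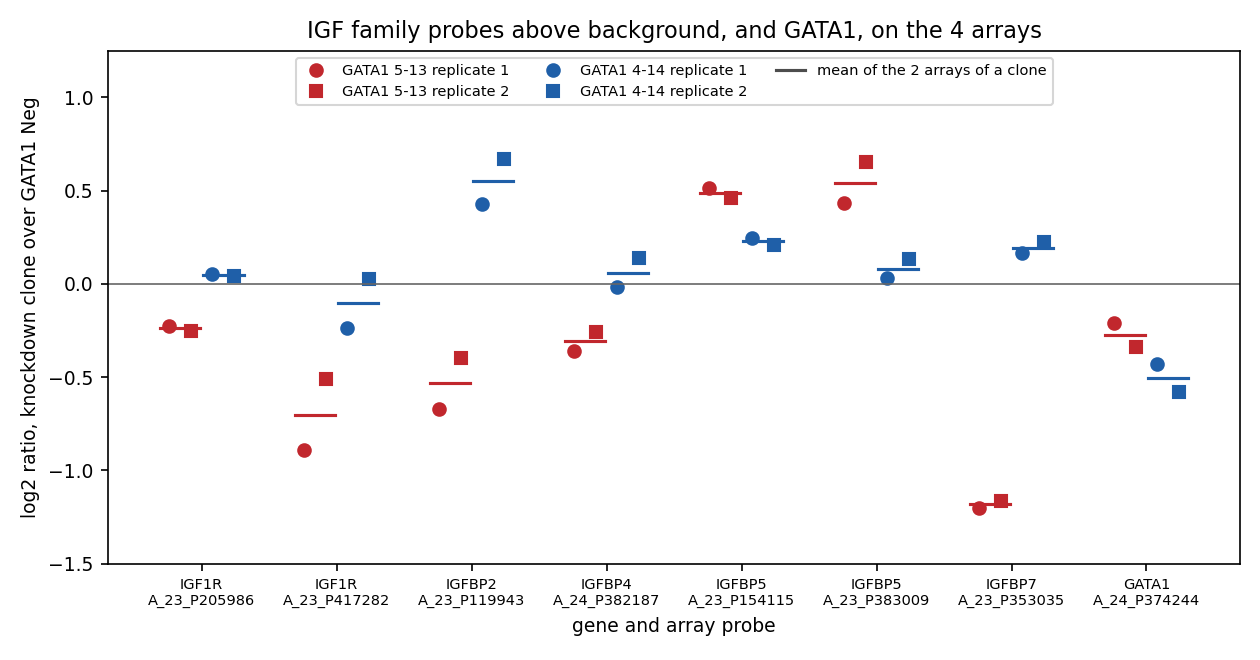
Log2 ratio of knockdown clone over GATA1 Neg (vertical axis) for the 7 measurable IGF family probes and the GATA1 probe (horizontal axis), with circles for replicate 1, squares for replicate 2, red for GATA1 5-13, blue for GATA1 4-14 and bars for the mean of the 2 arrays of a clone. IGFBP7 lies at -1.20 and -1.16 in GATA1 5-13 and above 0 in GATA1 4-14, IGFBP2 lies on opposite sides of 0 in the clones, and both IGFBP5 probes lie above 0 on all 4 arrays.

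IGFBP7 had the largest difference from GATA1 Neg among the 7 measurable probes. This secreted protein, found in the matrix around many cell types, was read by 1 probe, A_23_P353035 (hg18, chr4:57592180-57592239). Its intensity was 594 and 616 in GATA1 5-13 against 1367 and 1378 in GATA1 Neg, and 1578 and 1576 in GATA1 4-14 against 1409 and 1349.8. The 4 readings of GATA1 Neg differed by at most 1.04-fold, both arrays of GATA1 5-13 lay far below them, and both arrays of GATA1 4-14 lay above them. The log2 ratios were -1.20 and -1.16 in GATA1 5-13, which had 44.1% of the control level, and 0.16 and 0.22 in GATA1 4-14, which had 114%. Since the clones lay on opposite sides of the control, their mean of -0.49 ± 0.97 (SD, n = 2) had an adjusted p of 0.793 by limma with Benjamini-Hochberg adjustment. IGFBP7 was the 1 family probe of 7 that was lower by at least 1.5-fold on both arrays of GATA1 5-13, a criterion met by 3.23% of the 25516 probes above background in that clone.

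IGFBP2, a binding protein abundant in fetal tissue and in many tumors, lay below the control in GATA1 5-13 and above it in GATA1 4-14. Its probe A_23_P119943 (hg18, chr2:217237331-217237390) read 3649 and 4133 in GATA1 5-13 against 5801 and 5437 in GATA1 Neg. In GATA1 4-14 it read 7819.9 and 8745 against 5810.4 and 5497. None of the 4 knockdown readings fell inside the range of the GATA1 Neg readings, which spanned 1.07-fold. The readings of GATA1 5-13 were below that range and those of GATA1 4-14 above it. In log2 ratios these were -0.67 and -0.40 against 0.43 and 0.67, or 69.2% and 146% of the control. The clone mean of 0.01 ± 0.76 (SD, n = 2) had an adjusted p of 0.997 (limma, Benjamini-Hochberg).

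IGFBP5, which binds to extracellular matrix and lies next to IGFBP2 on chromosome 2, was the member that read higher in both clones. Of its 3 probes, A_23_P154115 (hg18, chr2:217249172-217249231) had intensities of 252 and 260.2 in GATA1 5-13 against 177 and 189 in GATA1 Neg, and of 195 and 195 in GATA1 4-14 against 164 and 168. All 4 knockdown readings lay above the highest reading of the control. The log2 ratios of 0.51, 0.46, 0.25 and 0.21 gave 140% of GATA1 Neg in GATA1 5-13 and 117% in GATA1 4-14, with a mean of 0.36 ± 0.18 (SD, n = 2). An unadjusted p of 0.0281 in the limma fit made it the 1 family probe of 19 under 0.05, which 7.42% of all 40974 probes reached. Its Benjamini-Hochberg adjusted p in limma was 0.634. Feature Extraction's own log ratios of this probe, computed after subtraction of the background, were 0.93, 0.79, 0.38 and 0.35. With no background correction they were 0.22, 0.21, 0.09 and 0.08, so the size of the difference depended on how the background was handled.

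The second IGFBP5 probe, A_23_P383009 (hg18, chr2:217245412-217245471), read 746 and 864 in GATA1 5-13 against 553 and 549 in GATA1 Neg. It read 560.2 and 606 in GATA1 4-14 against 549 and 553. The arrays of GATA1 5-13 were well above the control, which spanned 1.01-fold, and those of GATA1 4-14 only just above it. The log2 ratios were 0.43 and 0.65, then 0.03 and 0.13, with a mean of 0.31 ± 0.33 (SD, n = 2) and an adjusted p of 0.708 (limma, Benjamini-Hochberg). All 4 were above 0, but replicate 2 of GATA1 4-14 turned to -0.01 when the arrays were centred on the median in place of loess. The third probe, A_23_P376497 (hg18, chr2:217249829-217251117), was above background on 1 of the 2 arrays of GATA1 5-13 and never in the control. Its intensities in GATA1 5-13 were 110 and 117 against 102 and 98.7, with an adjusted p of 0.708 in the same fit. As replicate 1 was above background in neither RNA, no fold is given for this probe. IGFBP2 and IGFBP5 are neighbours on opposite strands, with their probes 8021 to 12438 bases apart on hg18. In GATA1 5-13 they differed in sign, with 69.2% of the control for IGFBP2 and 140% and 146% for the IGFBP5 probes.

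IGFBP4, an inhibitor of IGF action that PAPPA cleaves, was somewhat lower in GATA1 5-13. Its probe A_24_P382187 (hg18, chr17:35866834-35866893) read 1987 and 2039 in GATA1 5-13 against 2547 and 2440.0 in GATA1 Neg, and 2529.9 and 2684 in GATA1 4-14 against 2559 and 2442. GATA1 5-13 lay below the range of the control on both arrays, and GATA1 4-14 lay inside it on replicate 1 and above it on replicate 2. The log2 ratios of -0.36, -0.26, -0.02 and 0.14 gave 80.7% and 104% of the control as clone means, and a mean of -0.12 ± 0.26 (SD, n = 2) with an adjusted p of 0.823 (limma, Benjamini-Hochberg).

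IGFBP1, the insulin-regulated binding protein of the liver, IGFBP3, the main carrier of IGFs in serum, and IGFBP6, which prefers IGF2, were not well above background in either RNA on any array. They were covered by the probes A_23_P42868, A_23_P215634, A_24_P320699 and A_23_P139912. IGFBP1 and IGFBP3 are neighbours on chromosome 7, with probes 19582 and 23188 bases apart on hg18. Over the 12 family probes that were not above background on all 4 arrays, log2 ratios on single arrays ran from -0.15 to 0.42, 0 had an unadjusted p under 0.05 in the limma fit, and the lowest Benjamini-Hochberg adjusted p was 0.708.

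**Figure D3:**
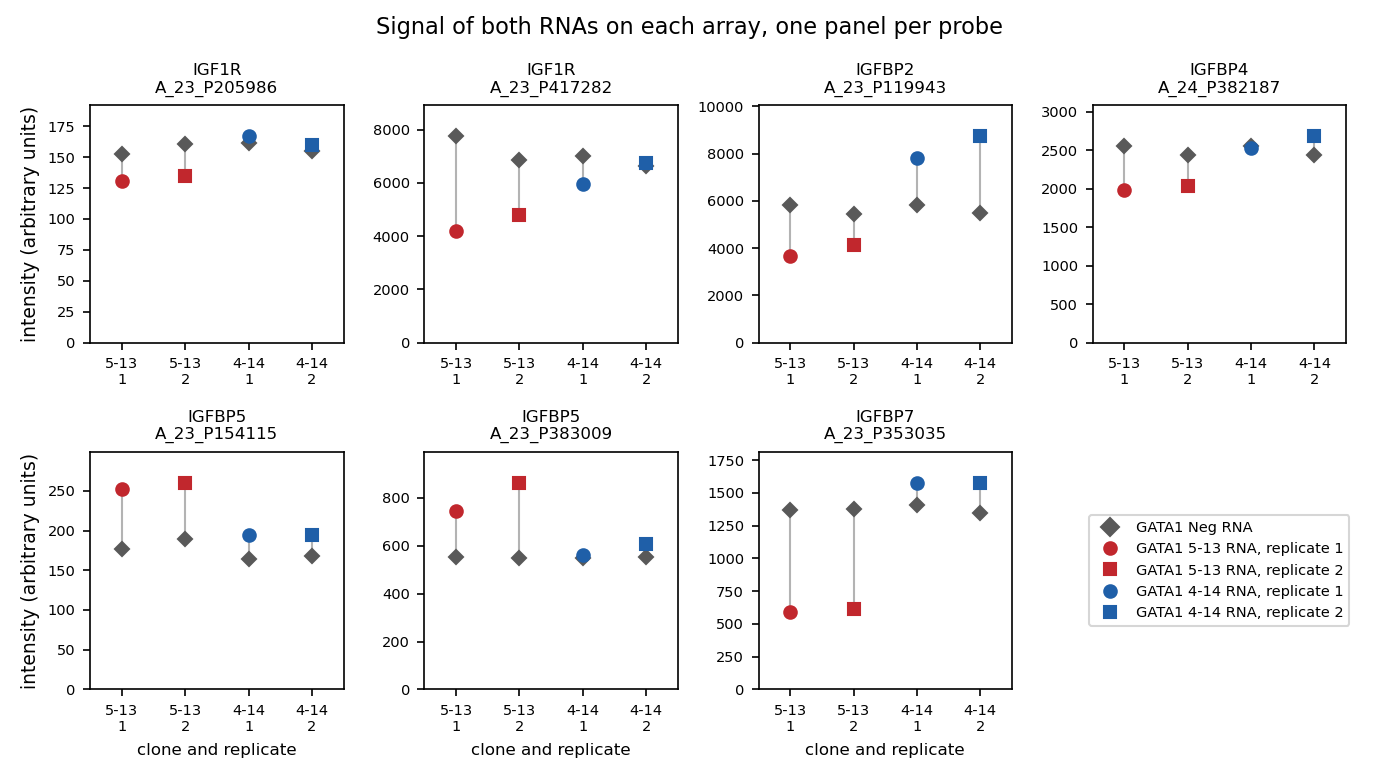
Intensity in arbitrary units (vertical axes, from 0) of GATA1 Neg RNA (grey diamonds) and of the knockdown RNA (red for GATA1 5-13, blue for GATA1 4-14) on each array (horizontal axes), with 1 panel per measurable IGF family probe and a line joining the 2 RNAs of an array. The diamonds of a panel stay close to each other, with a highest over lowest reading of 1.01 to 1.17, and the red points of IGFBP7, IGFBP2 and IGF1R lie below them.

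Across the family, 0 of 19 probes passed an adjusted p of 0.05 in limma's test of the 2 clones against 0, as was the case for 0% of the 40974 probes tested. At an unadjusted p of 0.005 the count was also 0 of 19, with 0.901% of all probes called. The study applied that cutoff to another test, the error model of Rosetta Resolver over the arrays, under which IGFBP5 passed. Among the 7 measurable probes, 0 were lower on all 4 arrays, where 17.3% of all 24751 such probes were. The 2 that were higher on all 4 arrays, both of IGFBP5, compare with 15.8% of all such probes. The clones took opposite signs on all 4 arrays for 3 of the 7, namely IGFBP2, IGFBP7 and the IGF1R probe A_23_P205986, and for 18.7% of all such probes. By fold, 0 of 7 were higher by at least 1.5-fold on both arrays of GATA1 5-13 (2.2% of all probes above background there). In GATA1 4-14, 0 of 7 were lower and 0 of 7 higher by that fold, against 1.12% and 1.34% of 24982 probes. With so few probes, these counts are a description and were not tested.

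The median log2 ratio over the 7 measurable probes was -0.31 in GATA1 5-13 and 0.08 in GATA1 4-14, and over all measurable probes it was -0.01 and -0.00099. In GATA1 5-13 the measurable probes of IGF1R, IGFBP2, IGFBP4 and IGFBP7 were below the control and the 2 IGFBP5 probes above it. With a median of -0.01 over all measurable probes, readings below the control were common on the array. The difference between the clones, GATA1 5-13 minus GATA1 4-14 on the log2 scale, was -1.38 for IGFBP7, -1.08 for IGFBP2, -0.60 and -0.29 for the IGF1R probes, -0.37 for IGFBP4, and 0.26 and 0.46 for the IGFBP5 probes. GATA1 itself had a difference of 0.23, with the lower level in GATA1 4-14. With 1 clone on each side, a difference between clones has no test.

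**Figure D4:**
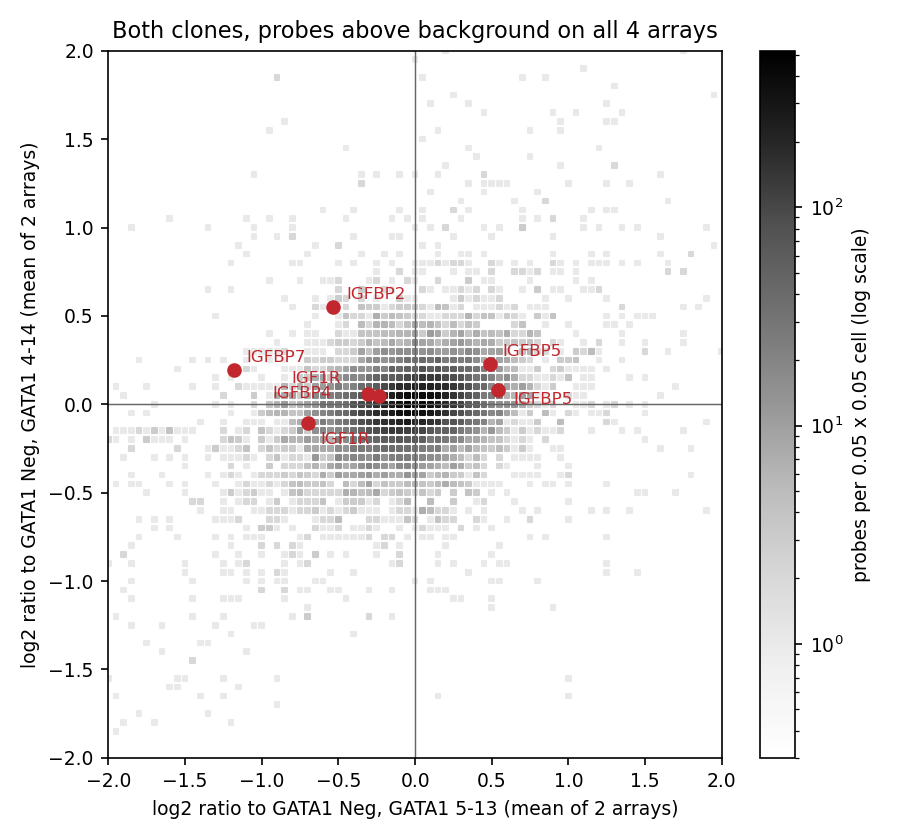
Mean log2 ratio to GATA1 Neg in GATA1 5-13 (horizontal axis) and in GATA1 4-14 (vertical axis), each over 2 arrays, with grey squares shaded by the number of measurable probes of the whole array on a log scale and red points for the 7 IGF family probes; 101 of 24751 probes lie outside the axes, which end at 2. IGFBP7 and IGFBP2 lie in the upper left quadrant, lower in GATA1 5-13 and higher in GATA1 4-14, and the IGFBP5 probes lie in the upper right.

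A list of 41 further genes of the pathway, of which 38 were on the array with 62 probes, gave 36 measurable probes. Of all 40974 probes tested, 24751 were measurable. Of these 36 probes, 14 were lower and 7 higher on all 4 arrays, against 17.3% and 15.8% of all 24751 measurable probes. Among probes above background on both arrays of a clone, 3 were lower by at least 1.5-fold on both arrays of GATA1 5-13, 1 of IRS2 and 2 of FOXO1 (3.23% of all such probes). In GATA1 4-14, 1 was lower by that fold, of IGFL2, and 0 were higher, against 1.12% and 1.34% of all such probes. None of the 62 passed the adjusted threshold or an unadjusted p of 0.005 in limma's test, and 8 had an unadjusted p under 0.05. Over all 40974 probes, 0.901% were at 0.005 or below and 7.42% under 0.05. The median log2 ratio of the measurable probes was -0.04 in GATA1 5-13 and -0.03 in GATA1 4-14, against -0.012 and -0.00099 over all measurable probes. These counts are a description and were not tested.

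In GATA1 5-13 the largest differences among the measurable probes of the list were those of IRS2 and FOXO1, and in GATA1 4-14 that of IGFL2. IRS2, an adaptor that links IGF1R and the insulin receptor to PI3K, had 3 probes, of which 1 was measurable. A_23_P53838, above background in GATA1 Neg alone and on 2 arrays, had clone means of -0.18 in GATA1 5-13 and -0.11 in GATA1 4-14. A_24_P207003, never above background, had 0.02 and -0.05. The measurable probe, A_24_P154037 (hg18, chr13:109204646-109204705), read 353 and 394 in GATA1 5-13 against 1333 and 1335 in GATA1 Neg. In GATA1 4-14 it read 1106 and 1134 against 1342 and 1279. It was lower on all 4 arrays, with 28.0% of the control in GATA1 5-13 and 85.5% in GATA1 4-14, and a mean log2 ratio of -1.03 ± 1.14 (SD, n = 2; adjusted p = 0.705, limma with Benjamini-Hochberg). FOXO1 (FOXO1A in the array design), a transcription factor that AKT keeps out of the nucleus, had the same order: A_23_P151426 read 436 and 442 against 1289 and 1285 in GATA1 5-13, and 1154 and 1123 against 1378 and 1299 in GATA1 4-14. Its log2 ratios were -1.55 and -0.23 as clone means, and its second probe, A_24_P22079, gave -1.20 and -0.19. The adjusted p-values of the FOXO1 probes were 0.699 and 0.698 (limma, Benjamini-Hochberg). Of the PI3K and AKT branch, 8 of 19 measurable probes were lower and 2 higher on all 4 arrays (17.3% and 15.8% of all measurable probes), and apart from FOXO1 none of these was past 1.5-fold on both arrays of a clone.

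IGFL2, a secreted protein named for its similarity to the IGFs, differed from IRS2 and FOXO1 in which clone was lower. Its probe A_23_P153571 (hg18, chr19:51356199-51356258) read 4113 and 4149 against 6104 and 5526 in GATA1 5-13, and 2789.9 and 2897 against 6203 and 5635 in GATA1 4-14. All 4 arrays were below the control, at 71.1% in GATA1 5-13 and 48.1% in GATA1 4-14, with a mean log2 ratio of -0.77 ± 0.40 (SD, n = 2; adjusted p = 0.606, limma with Benjamini-Hochberg). Stanniocalcin STC2, an inhibitor of the protease PAPPA, had the 2 measurable probes of the carriers, proteases and inhibitors, at -0.45 and -0.70 in GATA1 5-13 and at -0.04 and -0.26 in GATA1 4-14; it was named after its values were seen. The proteases PAPPA and PAPPA2 and the carrier protein IGFALS were not detected.

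Among the genes that read higher, GRB14, an adaptor that dampens insulin receptor signaling, had 1701 and 1743 against 1281 and 1195 in GATA1 5-13 and 1379.8 and 1458 against 1241 and 1191 in GATA1 4-14 (A_23_P154526). IGF2R, which takes up and degrades IGF2 and does not signal as IGF1R does, was higher on all 4 arrays on both probes. Its clone means were 0.42 and 0.20 for A_23_P334021 and 0.35 and 0.17 for A_23_P156953, and GRB14 had 0.48 and 0.22, in each case with the larger value in GATA1 5-13. Adjusted p-values were 0.634 for GRB14 and 0.647 and 0.661 for IGF2R (limma, Benjamini-Hochberg). INSR, the insulin receptor, was not detected.

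**Figure D5:**
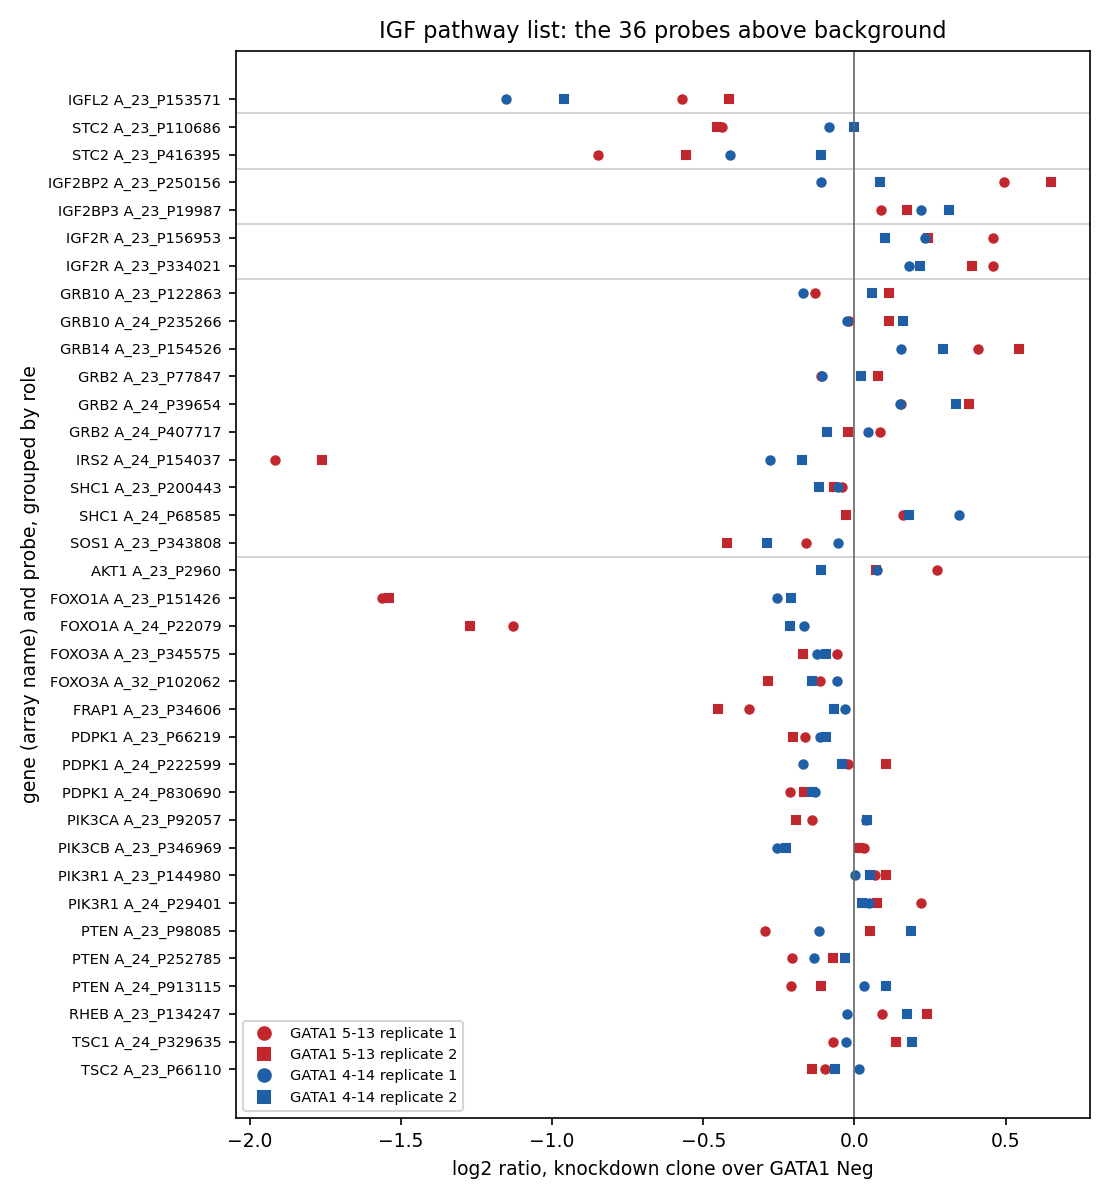
Log2 ratio of knockdown clone over GATA1 Neg (horizontal axis) for the 36 measurable probes of the pathway list (vertical axis, grouped by role and separated by grey lines), with circles for replicate 1, squares for replicate 2, red for GATA1 5-13 and blue for GATA1 4-14. IRS2 and the FOXO1A probes lie at -1.13 or below on both arrays of GATA1 5-13 and between -0.28 and -0.17 in GATA1 4-14, while IGFL2 is lower in GATA1 4-14.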

How the data were processed

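RNA of 2 Meg-01 GATA1 shRNA clones was compared with GATA1 Neg RNA on 4 2-colour arrays. The labels name Meg-01 as the source, although the CMK line, also megakaryoblastic, is named in their extraction text. The authors deposited scanner output (Feature Extraction 9.5.3.1, probes placed on hg18), whose mean and background intensities were deposited without normalization. The deposited log10 ratios and their error score were made by that program from background-subtracted, dye-normalized signals, and the authors' series-wide value file holds the same log10 ratios (largest difference 4.97e-06). Deposited spot flags mark outliers and signals above background. The authors' combination of arrays by Rosetta Resolver was not repeated.

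R 4.3.3 with limma 3.58.1 (and version 1.17.8 of data.table) gave log2 ratios in these steps: normexp with an offset of 50 on all 45015 spots, loess within each array, control spots weighted 0, outlier spots left out, spots of a probe averaged, and signs turned to knockdown over control. Both arrays of a clone were then averaged, as 1 replicate. Limma's moderated two-sided test set the mean of the 2 clones against 0, with Benjamini-Hochberg adjustment over 40974 probes. Intensities per RNA are after loess and Aquantile. Adjusted p of 0.05 and, after the study, unadjusted p of 0.005 were the thresholds; a clone alone has no test, and 1.5-fold on both arrays was counted instead. Precision is limited by the number of clones. No source says whether RNA of a clone came from separate cultures, so p-values measure the spread between 2 clones. The code was tested on simulated data with known changes. The annotation of hg18 was not used here, so probes are not placed in exons or introns.

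All member probes are named. Of the pathway list, the rule took genes past the unadjusted threshold and the 3 largest differences each way among probes with 1 sign on 4 arrays and above background in the brighter RNA. The members and lists were chosen with earlier results of these data known. Alternatives covered background correction, the source of the ratios, centring, Aquantile, a filter on dim probes, outlier spots, an intensity trend, the arrays taken singly without and with the replicate block, an error-weighted mean by the deposited errors, and each array and clone left out. Same-numbered arrays share the dye orientation; their deviations from the clone means correlated with 0.77, but with 2 pairs and no shared culture in the labels the numbers were not taken as pairs. For the pathway list, the probes higher by 1.5-fold in GATA1 5-13 are not reported here.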

Additional observations from a re-analysis of the deposited data

Results flagged for a closer look

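For 3 probes every array of GATA1 5-13 lay below GATA1 Neg and every array of GATA1 4-14 above it. The difference of the clones on the log2 scale, GATA1 5-13 minus GATA1 4-14, was -1.38 for IGFBP7 (A_23_P353035), -1.08 for IGFBP2 (A_23_P119943) and -0.29 for the IGF1R probe A_23_P205986. These differences were not tested, since each clone is 1 replicate, and 18.7% of all measurable probes had opposite signs in the clones on all 4 arrays. For IGFBP7 and IGFBP2 the opposite signs held with Feature Extraction's log ratios, with no background correction and with median centring. The IGF1R probe had a value of -0.02 on replicate 1 of GATA1 4-14 under median centring.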

How the results depend on the processing

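No family probe passed the adjusted threshold in limma under the alternatives tried, the error-weighted mean excepted. That mean, which takes its error from spots and not from clones, gave 5 probes at an adjusted p of 0.05 and 5 at an unadjusted p of 0.005: both IGFBP5 probes, IGFBP7 and both IGF1R probes. Treating the 4 arrays as 4 values without a replicate block gave 1 probe at an unadjusted p of 0.005, IGFBP5 A_23_P154115, with an adjusted p of 0.057, and the fit with the replicate block gave 0.133 (0.634 in the fit on clones; 6.62e-05 to 0.697 over all alternatives). The replicate block changed no call on a family probe. Over all probes, adjusted calls were 0 on clones, 736 lower and 504 higher on 4 arrays, 167 and 102 with the replicate block, and 1811 and 1720 with the error-weighted mean, and at an unadjusted p of 0.005 they were 369, 2209, 1776 and 3629. At that threshold no background correction gave 249, Feature Extraction ratios and the series-wide values 252, and an intensity trend 532.

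Feature Extraction's ratios and the series-wide values each gave 1 probe higher by 1.5-fold in GATA1 5-13 (IGFBP5 A_23_P154115), in place of 0. Median centring left 1 of 2 probes higher on all arrays. The mean of IGFBP2 turned to -0.060 without replicate 2 of GATA1 5-13 and to -0.052 without replicate 2 of GATA1 4-14 (range -0.060 to 0.077 with 1 array left out), and to -0.53 in GATA1 5-13 alone. In GATA1 4-14 alone the means were 0.060 for IGFBP4, 0.19 for IGFBP7 and 0.049 for the IGF1R probe A_23_P205986, against the opposite sign over both clones. With 1 array left out, probes higher by 1.5-fold in GATA1 5-13 numbered 0 to 1 (IGFBP5 A_23_P383009, without replicate 1), probes lower there 1 to 3 (IGFBP2 and IGF1R added without replicate 2), probes higher in GATA1 4-14 0 to 1 (IGFBP2, without replicate 1), and probes lower on all arrays 0 to 2 (IGFBP4 and IGF1R A_23_P417282, without replicate 2 of GATA1 4-14).

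Signal over background limits what can be said of IGF1, IGF2, IGFBP1, IGFBP3 and IGFBP6, and the ratios of the dim IGF1R and IGFBP5 probes moved with the background correction. Each clone is 1 replicate against 1 control pool, so the clone and the knockdown cannot be told apart in a value of 1 clone. Both clones grew from single colonies and were set against the same uncloned pool. In a difference shared by both clones, the knockdown, the cloning and that control pool cannot be told apart either.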
